A study of Homo sapiens with 6 samples.

Results

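Asparagine synthetase, 2 of the 3 serine synthesis enzymes and the mitochondrial folate enzyme MTHFD2 stood lower in SH-SY5Y cells with a hairpin against TDP-43. The serine synthesis enzyme PSAT1 stood higher. The listed values of the amino acid exchanger subunits were also lower, each with a limit. The SLC7A5 value is uncertain, because a copy of that gene moved the opposite way and sharing of reads was not tested. SLC3A2 no longer passed the test without both libraries low in the RNA SNORD3A, though it passed without either alone. SLC7A11 lay under the expression filter of the main test. The 10 genes described here encode enzymes of serine, asparagine and one-carbon metabolism and amino acid transporters, most of them known targets of the transcription factor ATF4. They were chosen by gene symbol, without a rule on their values but with earlier results of these data known. All 10 were found among the 26372 genes of the deposited table. The set comprises PHGDH, PSAT1 and PSPH (serine synthesis), SHMT1, SHMT2 and MTHFD2 (glycine and folate one-carbon metabolism), ASNS (asparagine synthesis), and SLC7A11, SLC7A5 and SLC3A2 (amino acid exchange at the plasma membrane).

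SH-SY5Y cells come from a human neuroblastoma and resemble sympathetic neuroblasts. Cells infected with lentivirus expressing a U6-driven hairpin against TDP-43 (shTDP43, genotype TDP-43 knockdown) were compared with cells carrying the control hairpin shNC (genotype control), with 3 libraries in each group. The treatment text is the same for all 6 libraries and gives puromycin selection at 2 μg/mL for 2 weeks and further culture in 1 μg/mL. It names the knockdown cells there and has no separate account of the shNC cells. The labels name 1 hairpin against TDP-43, and nothing in them says that replicates are separate cultures, so the p-values reflect the spread among these libraries alone, part or all of which may be technical. All cells grew in Eagle's minimum essential medium mixed with Ham's F12 and 15% fetal bovine serum. As background, Ham's F12 itself supplies serine, glycine and asparagine.

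Cells make serine from the glycolytic intermediate 3-phosphoglycerate through PHGDH, PSAT1 and PSPH in turn. Serine hydroxymethyltransferases pass a carbon from serine to tetrahydrofolate and release glycine, SHMT2 in mitochondria and SHMT1 in the cytosol, and MTHFD2 oxidises the folate-bound carbon in mitochondria for use in purine and thymidylate synthesis. ATF4, whose mRNA is translated more when the initiation factor eIF2 is phosphorylated during amino acid shortage or endoplasmic reticulum stress, raises transcription of many of these genes through CCAAT/enhancer-binding protein-ATF response elements. Dependence on serine and one-carbon metabolism has been reported for some neuroblastoma cells, and it was not tested here for SH-SY5Y cells.

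TARDBP, the gene of TDP-43 (chromosome 1, 11012654 to 11030528 on GRCh38), had 36.0, 33.1 and 34.8 FPKM in shTDP43 libraries, against 56.1, 56.2 and 56.6 FPKM in shNC libraries, 61.5% of the shNC mean (limma adjusted p = 2.84e-06). FPKM counts fragments per kilobase of gene, scaled to library size. Libraries of the same group correlated across genes at r = 0.993 to 0.995 and libraries of different groups at 0.980 to 0.982. Read totals are not in the table, so absolute depth is unknown. The small nucleolar RNA SNORD3A had 8551 FPKM in shTDP43 replicate 3 and 11541 FPKM in shNC replicate 1, against at least 137209 FPKM in each of the others. The 11 neuroblast markers used had summed levels of 1949.7 to 2004 FPKM in shTDP43 and 1705 to 1708 FPKM in shNC. Of 10 tested members 6 were higher and 3 lower, beside 18.5% higher and 19.6% lower over all tested genes. HAND2, GATA3 and ISL1 were each above 100 FPKM on average in both groups, but the catecholamine enzyme gene TH averaged 0.120 ± 0.0764 FPKM in shTDP43 and 0.0254 ± 0.0440 FPKM in shNC (SD, n = 3 each).

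The test was limma on log2(FPKM + 1) for every gene that averaged 1 FPKM or more, and a gene was called at an adjusted p under 0.05 over all 13263 tested genes. Of the 10 genes, 9 reached that level. SLC7A11, with a mean of 0.980 FPKM, lay just under it. Among the 9, 6 were lower and 1 was higher in shTDP43, and 2 did not pass. Over all tested genes 38.1% were called, 19.6% lower and 18.5% higher. The median log2 difference of the 9 genes was -0.28, beside 0.0012 over all tested genes. In 8 of the 9 the libraries of the 2 groups did not overlap, which was so for 50.7% of tested genes. Without shNC replicate 1 and shTDP43 replicate 3, the libraries low in SNORD3A, 5 were lower and 1 was higher, since SLC3A2 no longer passed, and 25.1% of all tested genes were called.

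**Figure D1:**
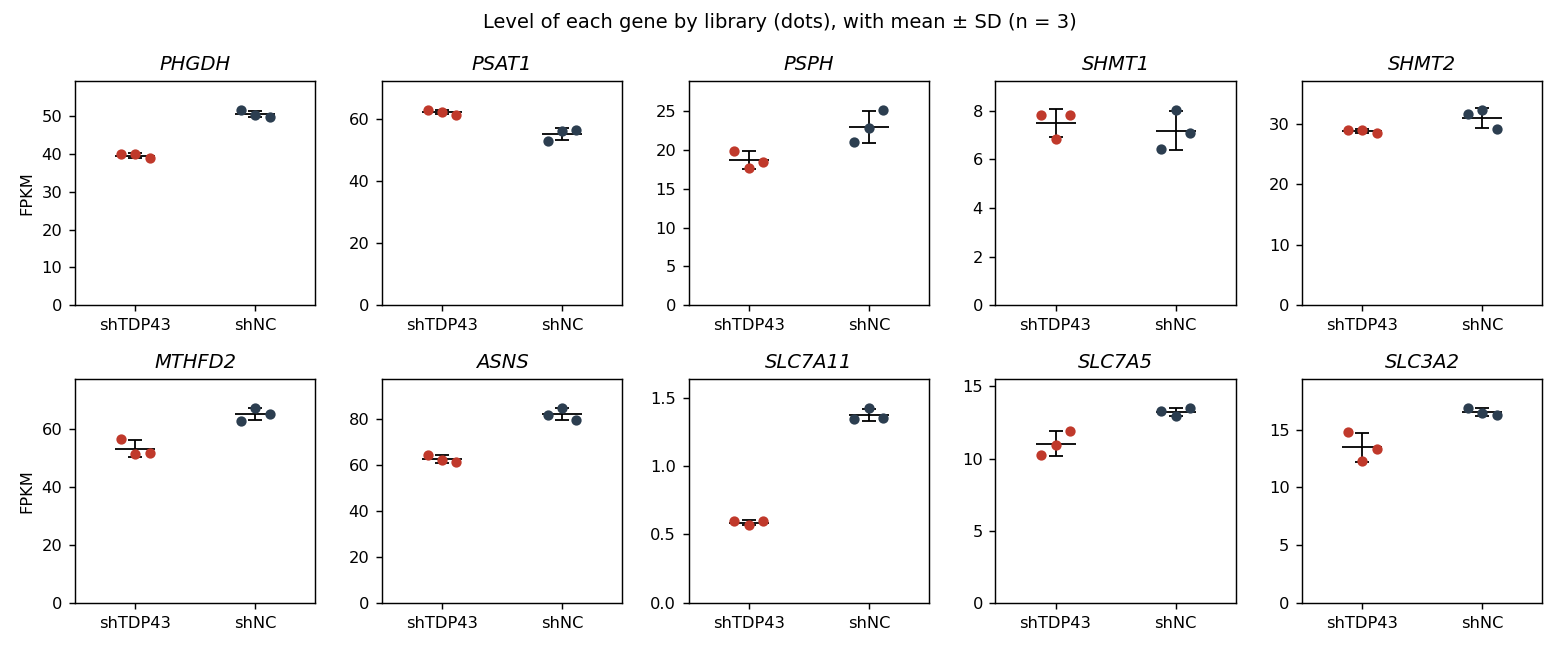
FPKM of each of the 10 genes (vertical axes from 0, each with its own range) in the 3 shTDP43 libraries (red, left) and the 3 shNC libraries (dark, right). Dots are libraries and bars give the mean ± SD. PSAT1 is the one gene whose shTDP43 libraries (61.3 to 62.7 FPKM) all lie above the shNC libraries (52.8 to 56.2 FPKM), SHMT1 overlaps, and the shTDP43 libraries of the other 8 lie below.

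The first and last enzymes of serine synthesis fell in shTDP43 while the middle one rose. PHGDH (chromosome 1, 119711934 to 119744215), the dehydrogenase that commits 3-phosphoglycerate to serine, had 39.9, 39.9 and 39.0 FPKM in shTDP43 libraries, against 51.6, 50.5 and 49.9 FPKM in shNC libraries. Its shTDP43 libraries lay close together and well under every shNC library. The mean was 39.6 ± 0.545 FPKM in shTDP43 and 50.6 ± 0.883 FPKM in shNC (SD, n = 3 each), 78.2% of shNC, a log2 difference of -0.35 (SE 0.03; limma adjusted p = 3.10e-05).

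PSAT1 (chromosome 9, 78297125 to 78330093), the aminotransferase of the next step, which takes its amino group from glutamate, had 62.7, 62.2 and 61.3 FPKM in shTDP43 libraries, against 52.8, 55.9 and 56.2 FPKM in shNC libraries. Each shTDP43 library was above each shNC library. The mean was 112.9% of shNC and the log2 difference 0.17 (SE 0.03; limma adjusted p = 0.00263). PSPH (chromosome 7, 56011064 to 56051444), the phosphatase that releases free serine, had 19.9, 17.7 and 18.5 FPKM in shTDP43 libraries, against 21.0, 22.8 and 25.1 FPKM in shNC libraries. The groups came near each other but did not overlap, and shNC replicates spread more (SD 2.07 FPKM) than shTDP43 replicates (SD 1.14 FPKM). PSPH averaged 81.3% of shNC, a log2 difference of -0.28 (SE 0.07; limma adjusted p = 0.0111). All 3 genes kept their call and direction in each of 16 alternative settings.

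The start regions of PHGDH and PSAT1 are shown because these neighbouring steps moved in opposite directions. Both run from 250 bases before to 50 bases after a RefSeq transcript start (GRCh38.p14), PHGDH at chr1:119711684-119711983 and PSAT1 at chr9:78296875-78297174, each on the plus strand. They were searched on both strands for TGATGNAA, the core of the CCAAT/enhancer-binding protein-ATF response element, which would be in capitals, and neither window holds it.
PHGDH: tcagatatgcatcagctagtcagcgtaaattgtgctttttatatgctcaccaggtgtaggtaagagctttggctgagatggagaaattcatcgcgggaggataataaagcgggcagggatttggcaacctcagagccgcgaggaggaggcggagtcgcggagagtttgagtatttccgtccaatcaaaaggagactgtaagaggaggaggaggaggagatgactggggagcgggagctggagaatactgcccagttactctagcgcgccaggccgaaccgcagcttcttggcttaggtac
PSAT1: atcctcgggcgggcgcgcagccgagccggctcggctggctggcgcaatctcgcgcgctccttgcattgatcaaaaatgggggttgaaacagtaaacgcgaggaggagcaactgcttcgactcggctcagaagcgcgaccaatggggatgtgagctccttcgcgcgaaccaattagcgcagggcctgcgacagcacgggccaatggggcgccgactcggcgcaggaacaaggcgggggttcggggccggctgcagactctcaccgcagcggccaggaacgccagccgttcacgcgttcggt
The PHGDH window is 52.7% G or C and the PSAT1 window 66%. Of 35116 such windows at RefSeq starts, 3.62% hold TGATGNAA. The absence of these letters from such a window says nothing about binding of ATF4 elsewhere in the gene.

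Of the folate enzymes MTHFD2 fell, and neither serine hydroxymethyltransferase passed the test. MTHFD2 (chromosome 2, 74198615 to 74217565), the mitochondrial dehydrogenase and cyclohydrolase, had 56.6, 51.4 and 51.8 FPKM in shTDP43 libraries, against 62.9, 67.3 and 65.3 FPKM in shNC libraries. All shTDP43 libraries were lower, at 81.7% of shNC on average, with a log2 difference of -0.29 (SE 0.04; limma adjusted p = 0.00119). SHMT2 (chromosome 12, 57229711 to 57234935), the mitochondrial hydroxymethyltransferase, had 29.1, 29.0 and 28.5 FPKM in shTDP43 libraries, against 31.6, 32.3 and 29.2 FPKM in shNC libraries. The groups did not overlap, but shNC replicate 3 lay within 0.1 FPKM of shTDP43 replicate 1. Its log2 difference was -0.10 (95% interval -0.19 to -0.01; limma adjusted p = 0.0754). Without shNC replicate 3 SHMT2 passed as lower, at -0.14 (limma adjusted p = 0.0119), and with quantile normalization the adjusted p was 0.0498.

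SHMT1 (chromosome 17, 18327873 to 18363550), the cytosolic enzyme, had 7.81, 6.84 and 7.84 FPKM in shTDP43 libraries, against 6.44, 8.02 and 7.08 FPKM in shNC libraries. The groups overlapped, and the log2 difference of 0.06 had a 95% interval of -0.13 to 0.24 (limma adjusted p = 0.611). The SHMT1 values are thus compatible with no difference and with a difference in either direction within that interval. MTHFD2, SHMT2 and SHMT1 overlap other genes at their ends. MTHFD2 overlaps SLC4A5 (2.87 FPKM in shTDP43 and 3.11 FPKM in shNC). SHMT2 overlaps COXFA4L2, listed here as NDUFA4L2 (0.529 FPKM in shTDP43 and 0.975 FPKM in shNC). SHMT1 overlaps SMCR8 (10.5 FPKM in shTDP43 and 9.20 FPKM in shNC). Whether the authors' counting used strand is not given in the labels.

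ASNS showed the lowest log2 difference of the 9 tested genes. This enzyme (chromosome 7, 97851677 to 97928441) makes asparagine from aspartate with glutamine as nitrogen donor. It had 64.4, 62.0 and 61.4 FPKM in shTDP43 libraries, against 81.8, 84.8 and 79.8 FPKM in shNC libraries. The highest shTDP43 library lay far under the lowest shNC library. The mean was 62.6 ± 1.57 FPKM in shTDP43 and 82.1 ± 2.54 FPKM in shNC (SD, n = 3 each), 76.2% of shNC, a log2 difference of -0.39 (SE 0.03; limma adjusted p = 4.69e-05). By the root mean square difference of mean-centred log2(FPKM + 1) over the 6 libraries, the tested genes most like ASNS were UBE2QL1 (0.0222), SLC4A11 (0.0242) and LRRC2 (0.0245). UBE2QL1 averaged 15.0 FPKM in shTDP43 and 19.5 FPKM in shNC. SLC4A11 averaged 1.26 FPKM in shTDP43 and 2.03 FPKM in shNC, and LRRC2 0.793 FPKM in shTDP43 and 1.31 FPKM in shNC, so the pseudocount of 1 shrinks their differences and their likeness to ASNS is on that scale only. Those most like PSAT1, which had the highest log2 difference of the 9, were SPCS3 (0.00898), REPIN1 (0.0107) and ZNF45 (0.0142).

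Promoter sequence is shown for ASNS because its response element is the classic example in this pathway. The window at chr7:97872359-97872658 (GRCh38.p14, minus strand, printed in the direction of the gene) holds TGATGAAA, in capitals, starting 68 bases before the RefSeq start.
ASNS: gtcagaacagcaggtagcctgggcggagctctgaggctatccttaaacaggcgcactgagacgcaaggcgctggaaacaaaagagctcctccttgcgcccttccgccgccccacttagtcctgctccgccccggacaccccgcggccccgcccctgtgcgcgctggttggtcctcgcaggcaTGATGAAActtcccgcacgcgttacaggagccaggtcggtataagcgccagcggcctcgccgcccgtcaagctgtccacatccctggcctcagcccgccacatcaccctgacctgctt
A second RefSeq start of ASNS (chr7:97872116-97872415) has 0 matches in its window. RefSeq also annotates a longer read-through RNA over ASNS, CZ1P-ASNS, and their reads cannot be told apart in a value per gene.

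The exchanger subunits were lower in shTDP43, and SLC7A11 had the largest fold difference of the 10 at the lowest level. SLC3A2 (chromosome 11, 62856109 to 62888860) is the heavy chain, also called 4F2hc or CD98, that carries either light chain to the plasma membrane. It had 14.8, 12.2 and 13.4 FPKM in shTDP43 libraries, against 16.9, 16.4 and 16.3 FPKM in shNC libraries. The shTDP43 libraries were all lower and spread more widely. They averaged 81.5% of shNC, with a log2 difference of -0.28 (SE 0.06; limma adjusted p = 0.00772). Without both libraries low in SNORD3A the difference was -0.26 (limma adjusted p = 0.0713), so the call then ended. That setting called 25.1% of all tested genes, against 38.1% with all 6 libraries. SLC3A2 passed without shNC replicate 1 alone (limma adjusted p = 0.0287) and without shTDP43 replicate 3 alone (limma adjusted p = 0.0251).

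SLC7A5 (chromosome 16, 87830023 to 87869507), known as LAT1, exchanges glutamine for leucine and other large neutral amino acids. It had 10.3, 10.9 and 11.9 FPKM in shTDP43 libraries, against 13.3, 12.9 and 13.5 FPKM in shNC libraries. No shTDP43 library reached the lowest shNC library. The mean was 83.3% of shNC, a log2 difference of -0.25 (SE 0.05; limma adjusted p = 0.0080). SLC7A5 has copies on the same chromosome between which reads could be split. SLC7A5P1 had 4.56, 3.36 and 4.37 FPKM in shTDP43 libraries, against 2.12, 1.35 and 1.47 FPKM in shNC libraries, and SLC7A5P2 averaged 8.24 FPKM in shTDP43 and 8.13 FPKM in shNC. The copy SLC7A5P1 (chromosome 16, 29613103 to 29613725) thus moved opposite to SLC7A5 (limma adjusted p = 0.000925), and the SLC7A5 value is uncertain for that reason. Whether reads were split was not tested. FPKM is per length, so equal FPKM changes in genes of unlike length are unlike numbers of fragments.

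SLC7A11 (chromosome 4, 138164097 to 138242349), known as xCT, imports cystine in exchange for glutamate and so feeds glutathione synthesis. It had 0.596, 0.567 and 0.595 FPKM in shTDP43 libraries, against 1.35, 1.42 and 1.35 FPKM in shNC libraries. Each group was tight and they lay far apart, at 42.7% of shNC on average. With the filter lowered to a mean of 0.5 FPKM, a setting added after this gene was seen to miss the first filter, its log2 difference was -0.58 (SE 0.08; limma adjusted p = 0.000764; 36.1% of genes called there). A pseudocount of 1 shrinks so low a gene, and with a pseudocount of 0.1 at the same filter the log2 difference was -1.10 (limma adjusted p = 0.000928). The antisense RNA SLC7A11-AS1 overlaps it and averaged 0.0438 FPKM in shTDP43 and 0.131 FPKM in shNC.

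For SLC3A2, 1 of 3 RefSeq start windows holds the response element core, and it is shown for that reason. The window is chr11:62881449-62881748 (GRCh38.p14, plus strand), and the match, in capitals, lies on the opposite strand, beginning 38 bases after the start.
SLC3A2: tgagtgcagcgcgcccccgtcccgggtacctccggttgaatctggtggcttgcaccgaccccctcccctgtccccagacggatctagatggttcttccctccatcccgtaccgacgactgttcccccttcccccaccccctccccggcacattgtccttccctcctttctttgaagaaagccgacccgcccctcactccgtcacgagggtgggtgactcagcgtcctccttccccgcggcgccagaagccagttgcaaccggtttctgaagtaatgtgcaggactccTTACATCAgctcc
RefSeq windows were found for 7 of the 10 genes. With 1 window counted per gene, 2 of the 7, ASNS and SLC3A2, hold TGATGNAA. The same count over tested genes gave 151 of 9778 (1.54%). No conclusion is drawn from 7 genes.

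**Figure D2:**
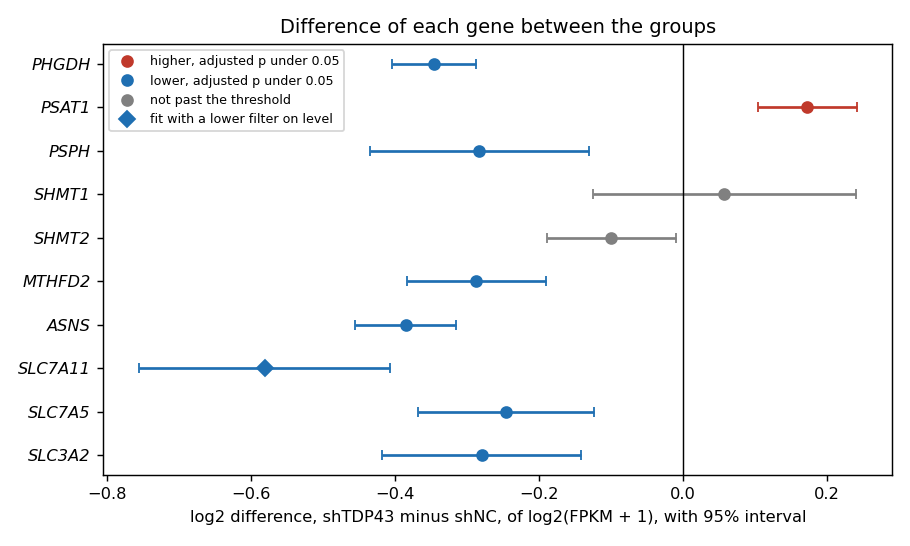
Log2 difference (shTDP43 minus shNC, on the log2(FPKM + 1) scale) of the 10 genes with its 95% interval. Colours show genes called lower (blue), called higher (red) and not past the threshold (grey), and the diamond marks SLC7A11 from the fit with a filter of 0.5 FPKM. Differences run from -0.58 for SLC7A11 to 0.17 for PSAT1.

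FPKM is per length, so levels can be set against each other. In shTDP43 the order of mean level was ASNS (62.6 FPKM), PSAT1 (62.1), MTHFD2 (53.3), PHGDH (39.6), SHMT2 (28.9), PSPH (18.7), SLC3A2 (13.5), SLC7A5 (11.0), SHMT1 (7.49) and SLC7A11 (0.586). In shNC it was ASNS (82.1 FPKM), MTHFD2 (65.2), PSAT1 (55.0), PHGDH (50.6), SHMT2 (31.0), PSPH (23.0), SLC3A2 (16.5), SLC7A5 (13.2), SHMT1 (7.18) and SLC7A11 (1.37). Neighbours in the order did not overlap across libraries, except ASNS and PSAT1 in shTDP43. PSAT1 thus stood above MTHFD2 in shTDP43 and below it in shNC, the one change of place between the groups.

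Ratios of partner genes were formed within each library, and 7 were tested by an exact two-sided permutation test whose smallest possible p is 0.1. PSAT1 over PHGDH was 1.57, 1.56 and 1.57 in shTDP43 libraries, against 1.02, 1.11 and 1.13 in shNC libraries, a log2 difference of 0.53 (exact p = 0.1; adjusted over the 7 ratios, 0.233). The shTDP43 libraries were nearly equal and all above shNC. SLC7A11 over SLC3A2 was 0.0404, 0.0463 and 0.0446 in shTDP43 libraries, against 0.0799, 0.0869 and 0.0830 in shNC libraries, a log2 difference of -0.93 (exact p = 0.1; adjusted 0.233). It was -0.30 with a pseudocount of 1. MTHFD2 over SHMT2 was 1.95, 1.77 and 1.81 in shTDP43 libraries, against 1.99, 2.08 and 2.24 in shNC libraries, a log2 difference of -0.19 with no overlap (exact p = 0.1; adjusted 0.233).

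The other 4 ratios overlapped between the groups. ASNS over PHGDH averaged 1.58 in shTDP43 and 1.62 in shNC, a log2 difference of -0.04 (exact p = 0.4). PSPH over PHGDH averaged 0.472 in shTDP43 and 0.455 in shNC (exact p = 0.7). For the light chain SLC7A5 over its heavy chain SLC3A2 the averages were 0.826 in shTDP43 and 0.803 in shNC (exact p = 1). SHMT2 over SHMT1 averaged 3.87 in shTDP43 and 4.35 in shNC (exact p = 0.3).

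**Figure D3:**
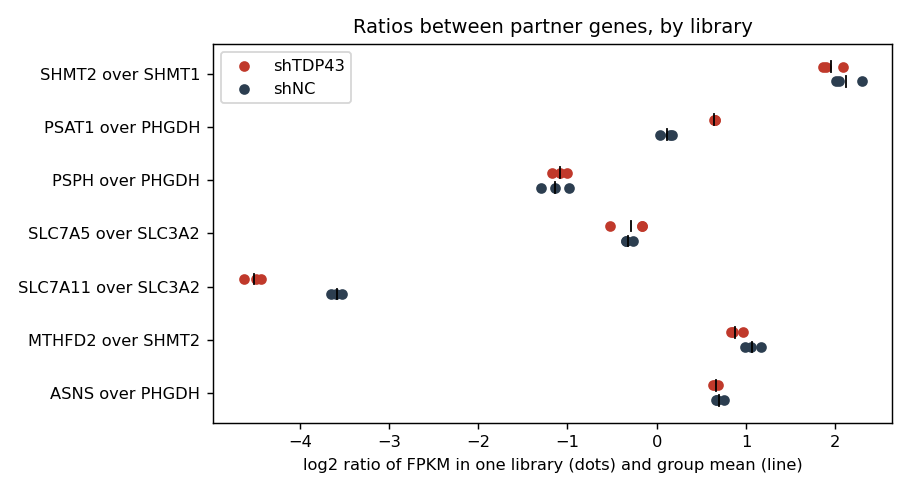
Log2 ratio of the FPKM of 2 genes within each library for 7 pairs, with shTDP43 (red, upper dots) and shNC (dark, lower dots). Short lines are group means of 3 libraries. PSAT1 over PHGDH lies to the right in shTDP43 (means 0.65 in shTDP43 and 0.12 in shNC), and SLC7A11 over SLC3A2 to the left (-4.52 in shTDP43 and -3.59 in shNC).

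ATF4 itself (chromosome 22, 39520559 to 39522686) had 97.3, 100.0 and 92.1 FPKM in shTDP43 libraries, against 119.7, 115.6 and 115.5 FPKM in shNC libraries. Every shTDP43 library was lower, at 82.5% of shNC on average, with a log2 difference of -0.28 (SE 0.03; limma adjusted p = 0.000446). ATF4 protein, which is set mainly by translation, was not analysed here. In a list of ATF4 and other genes reported as its targets or partners, 13 of 20 tested genes were lower and 1 was higher. The shares over all tested genes were 19.6% lower and 18.5% higher. The median log2 difference of the list was -0.21. It was chosen with earlier results of these data known and does not hold every gene that ATF4 acts on, so its count depends on that choice. SLC1A5 and SLC38A2, placed among the other transporters below, rose. GDF15, a secreted stress cytokine gene, fell to 2.33 ± 0.403 FPKM in shTDP43, against 8.64 ± 1.00 FPKM in shNC (SD, n = 3 each; limma adjusted p = 1.93e-05). The stress transcription factor gene ATF3 fell to 60.1% of shNC and its relative JDP2 to 55.1%. As background, GDF15, ATF3 and the sestrin gene SESN2 (67.3% of shNC, named after its value was seen) are also targets of p53.

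Genes of the same list that are used as readouts of the ATF4 response, chosen after their values were seen, were the pro-apoptotic factor gene DDIT3 at 72.0% of shNC and the pseudokinase gene TRIB3 at 77.9%, both lower (limma adjusted p = 0.00481 and 0.0041). CHAC1, which breaks down glutathione, stood at 4.16 ± 0.316 FPKM in shTDP43 and 4.76 ± 0.534 FPKM in shNC and did not pass (limma adjusted p = 0.171). PPP1R15A, the stress-induced subunit of the eIF2alpha phosphatase, was the 1 gene of the list that rose, to 117.6% of shNC (limma adjusted p = 0.0167). Among 14 genes of eIF2, its exchange factor eIF2B, its kinases and their modifiers, 3 were higher and 1 was lower (median 0.01). The called share was 28.6%, beside 38.1% of all tested genes, and no difference can be read from so few genes. EIF2B1 rose to 117.2% and EIF2S1, the gene of eIF2alpha, to 114.5% of shNC, while EIF2AK4, the gene of the amino acid-sensing kinase GCN2, fell to 88.4%.

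In the rest of folate metabolism 4 of 19 tested genes were lower and 2 were higher, a share near that of all tested genes, with a median of -0.0022. MTHFD1L, the mitochondrial enzyme downstream of MTHFD2 that releases formate, fell to 15.6 ± 0.650 FPKM in shTDP43, against 20.4 ± 1.04 FPKM in shNC (SD, n = 3 each), 76.4% of shNC (limma adjusted p = 0.000563). ALDH1L2, a mitochondrial formyltetrahydrofolate dehydrogenase gene, fell to 81.6%. SFXN1, which encodes a mitochondrial serine transporter and was named after its values were seen, fell to 85.6% (limma adjusted p = 0.00506). MTHFD2L, the homologue of MTHFD2, rose to 4.96 ± 0.432 FPKM in shTDP43, against 3.66 ± 0.315 FPKM in shNC, 135% of shNC (limma adjusted p = 0.00795). The cytosolic enzyme genes MTHFD1 (102.9% of shNC) and TYMS (102.4%), also named after their values were seen, did not pass.

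Glycine cleavage, serine breakdown and methionine cycle genes were lower in 4 and higher in 2 of 18 tested (median -0.01), a called share of 33.3% that is near the 38.1% of all tested genes. CDO1, a cysteine dioxygenase gene, fell to 66.7% of shNC and AHCYL2 to 77.9%, while methionine synthase (MTR) rose to 111.7%. Other amino acid synthesis genes were lower in 5 and higher in 1 of 15 tested (median -0.08), a called share of 40.0% that is also near that of all tested genes. The 3 largest changes were falls, in ASL, the argininosuccinate lyase gene, to 71.5%, in the branched-chain aminotransferase gene BCAT2 to 74.6% and in the aspartate aminotransferase gene GOT1 to 76.8% of shNC.

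Other amino acid transporters went both ways, with 6 of 16 tested genes higher and 3 lower (median 0.06), beside 18.5% higher and 19.6% lower over all tested genes. Without both libraries low in SNORD3A 2 were higher and 2 lower, the share of all tested genes called there being 25.1%. The cationic amino acid transporter gene SLC7A2 fell to 2.89 ± 0.183 FPKM in shTDP43, against 7.30 ± 0.112 FPKM in shNC (SD, n = 3 each), 39.6% of shNC (limma adjusted p = 4.28e-06). SLC7A1, another cationic transporter gene, fell to 79.4%, while the glutamate transporter gene SLC1A2 rose to 169.5% (3.43 FPKM in shTDP43 and 2.02 FPKM in shNC). Named after their values were seen, the glutamine transporter genes SLC1A5 and SLC38A2, which ATF4 is also known to act on, rose to 122.0% and 106.6% of shNC (limma adjusted p = 0.00344 and 0.0181).

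Glutathione and ferroptosis genes were lower in 7 and higher in 2 of 18 tested (median -0.13), beside 19.6% lower and 18.5% higher over all tested genes. GPX1, a glutathione peroxidase gene, fell to 77.3%, the thioredoxin gene TXN to 82.1% and glutathione synthetase (GSS) to 83.9% of shNC, whereas GCLC, for the rate-limiting ligase of glutathione synthesis and named after its value was seen, had 93.6% and did not pass (limma adjusted p = 0.169). Of the sensors that link amino acids to the kinase complex TORC1, 5 of 18 tested genes were lower and 5 higher (median 0.02), beside 19.6% lower and 18.5% higher over all tested genes. The sestrin genes SESN3 and SESN1 fell to 57.9% and 63.3% of shNC, and LAMTOR2, a lysosomal scaffold subunit gene, rose to 120.7%.

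**Figure D4:**
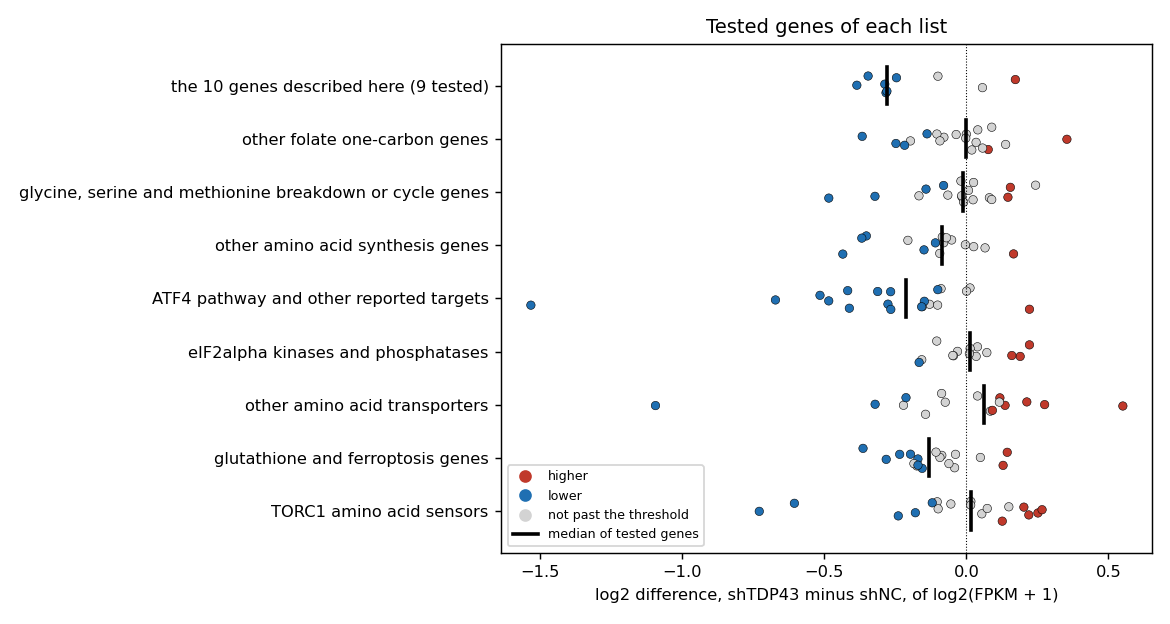
Log2 difference (shTDP43 minus shNC, on the log2(FPKM + 1) scale) of each tested gene in 9 lists, with the median of each list as a black bar. Red dots were called higher, blue dots lower and grey dots not called. The median is -0.28 for the 9 tested genes described here and -0.21 for ATF4 and other reported targets, and between -0.13 and 0.06 for the rest.

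For 3 lists of markers of other cells the summed level was lower in every shTDP43 library than in any shNC library, though not for every gene in them. Mesenchymal markers are known from the substrate-adherent cell type of neuroblastoma cultures. They summed to 179.8 to 188 FPKM in shTDP43 libraries, against 318 to 325 FPKM in shNC libraries. Of 12 listed, 8 were tested and 8 of 8 were lower, beside 19.6% lower over all tested genes. Their defining gene PRRX1 was listed at 0 in all shTDP43 libraries and averaged 0.00383 FPKM in shNC. Schwann cell and glial markers summed to 9.34 to 9.90 FPKM in shTDP43 libraries, against 20.0 to 21.5 FPKM in shNC libraries. Only 2 of 8 were tested, and both were lower. SOX10 averaged 0.295 FPKM in shTDP43 and 0.180 FPKM in shNC. Blood, endothelial and epithelial markers summed to 2.68 to 3.57 FPKM in shTDP43 libraries, against 3.92 to 5.22 FPKM in shNC libraries. Only 2 of 11 were tested, with 1 of 2 lower. CD3E and HBB were listed at 0 in all 6 libraries. In bulk RNA, fewer cells of a type and less RNA per cell cannot be told apart. The part of these differences in the lower levels of PHGDH, PSPH, MTHFD2, ASNS and the exchanger genes was not tested.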

How the data were processed

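Poly(A) RNA was extracted with TRIzol from SH-SY5Y cells and made into directional libraries, per the labels' protocols. The authors deposited FPKM values for 26372 gene symbols in 6 libraries. Per the submitters' processing notes, the tools were TopHat2 2.1.0, SAMtools and Cuffdiff 2.2.1 with build hg38. For annotation, strand use and multiply mapped reads nothing is given in the sources used here. No counts are given, so the depth is unknown, no counting interval is given, and no count model was used.

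The model in limma 3.58.1 (R 4.3.3) took log2(FPKM + 1), with group as the only term, a variance trend, a two-sided test and Benjamini-Hochberg adjustment over the 13263 genes that averaged 1 FPKM or more. Fold changes on this scale understate low genes, so percentages are ratios of mean FPKM. No pair of libraries was identical (0 pairs). A check on simulated data (13263 genes, shTDP43 against shNC) found 32, 45, 50 and 50 genes among 50 each altered 1.2-, 1.5-, 2- and 3-fold, with 7 false calls. Only those genes were altered there, whereas 38.1% of tested genes were called in the real data. The recovery and false calls of the check therefore need not hold for the real fit.

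The 10 genes and the lists were chosen with earlier results of these data known. Besides them, TARDBP and ATF4, the rule named the 3 called genes of largest absolute log2 difference in each of 8 pathway lists, and the 3 tested genes nearest in profile to the members of highest and lowest difference. Genes named outside this rule were chosen after their values were seen. One marker gene is not reported here and was left out of its list's sum. Locations and start windows came from RefSeq (GRCh38.p14, the assembly of hg38), with all 10 genes located. Alternatives changed the pseudocount, filter, scaling, variance trend, replicate block and libraries (16 in all).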

Additional observations from a re-analysis of the deposited data

How the results depend on the processing

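Under 14 alternatives fixed at the outset and 2 added after SLC7A11 was seen to miss the filter, PHGDH, PSPH, MTHFD2, ASNS and SLC7A5 stayed lower and PSAT1 higher, each past the threshold. SLC3A2 passed in 15 of 16, the exception being the setting without shNC replicate 1 and shTDP43 replicate 3 (-0.26), where 3323 genes in all and 4 other amino acid transporters were called, against 5054 and 9. SHMT2 passed as lower with quantile normalization (-0.11) and without shNC replicate 3. SHMT1 changed sign, with -0.039 without both libraries low in SNORD3A and between -0.0092 and 0.13 without each library in turn. With a pseudocount of 1 the log2 ratio of SLC7A11 over SLC3A2 differed by -0.30. The causes were not tested. With the replicate number as a block, 4502 genes and the same 7 of the 10 were called. Same-numbered libraries deviated together at r = -0.07, 0.06 and 0.11, and not every library correlated best with its own number, so the numbers were not taken as pairs. Depth is unknown, so counting error cannot be given, also for SLC7A11, which lies under 2 FPKM.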
